A study of Mus musculus with 40 samples.

Results

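Loss of the citrate transporter gene Slc13a5 was examined in mice that already carried the CSB genotype, by setting cerebellar RNA of double mutants (DKO) against that of CSB mice on a standard diet (SD). The libraries were chosen by their labels: 4 DKO SD libraries (numbers 1, 34, 35 and 36) and 6 CSB SD libraries (numbers 6, 8, 16, 26, 30 and 31), which are 10 of the 40 libraries of the series. The labels give every library as total RNA, depleted of ribosomal RNA, from the cerebellum of a male C57BL6 mouse. The other groups used beside them were DKO and CSB on a ketogenic diet (KD, 5 libraries each), INDY on SD (6) and WT on SD (4), where INDY is the name given to loss of Slc13a5. CSB and DKO mice share the CSB genotype, so it is common to both sides of the comparison. The labels name no allele, age or way in which either gene was inactivated, and do not say whether each library is 1 animal. The p-values therefore measure the spread between libraries, which may in part be technical.

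Slc13a5 encodes a sodium-coupled transporter of the plasma membrane that brings citrate into the cell. In the cytosol, citrate is cleaved by ATP citrate lyase (Acly) to acetyl-CoA, the building block of fatty acids and sterols and the donor for histone acetylation, and it also acts on enzymes of glycolysis and fat synthesis. The CSB protein, encoded by Ercc6, is an ATPase that acts at stalled RNA polymerase in transcription-coupled nucleotide excision repair, and its loss causes Cockayne syndrome B, a disorder with cerebellar degeneration.

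Values were estimated read counts per gene, normalised by the authors, and are called values here. Differences were computed as log2(value + 1), DKO minus CSB, and tested with limma, with Benjamini-Hochberg adjustment over the 21367 genes that reached 10 in 4 or more of the 40 libraries. A gene passed the test at an adjusted p under 0.05. The sum of values per library ran from 27335713 to 28857051 in DKO SD and from 24691019 to 26892567 in CSB SD. Since the authors had already normalised them, the sums do not show how deeply each library was sequenced. The number of genes above 0 was 25948 to 27304 in DKO SD and 26839 to 27111 in CSB SD.

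Before any genotype difference is read, 2 of the 4 DKO SD libraries, DKO SD 1 and DKO SD 35, have to be set apart. Both stood high in forebrain genes, against the cerebellum label. Only DKO SD 1 was also below every CSB SD library in the levels of granule and Purkinje cell genes. Emx2, a transcription factor of the developing cortex and a member of the forebrain list, stood at 86.1 in DKO SD 1 and 34.8 in DKO SD 35, against 11.1 in DKO SD 34, 10.2 in DKO SD 36 and 0 to 18.4 in CSB SD. Gabra6, the GABA-A receptor subunit that defines cerebellar granule cells, stood at 16.7 in DKO SD 1, 5934 in DKO SD 34, 2063 in DKO SD 35 and 9498 in DKO SD 36. In CSB SD it ran from 1429.8 to 9624. The library labelled DKO SD 1 was thus low in the defining gene of the most numerous cerebellar neuron, and DKO SD 35 lay within the CSB SD range for it.

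The full marker lists showed the same libraries apart. Over 20 forebrain neuron genes the mean of log2(value + 1) was 10.62 in DKO SD 1, 6.71 in DKO SD 34, 8.99 in DKO SD 35 and 6.39 in DKO SD 36, and it was 6.10 to 6.56 in CSB SD. Over 16 granule cell genes the same mean was 8.36, 11.40, 10.66 and 11.93 in that order, and 10.27 to 12.05 in CSB SD. Over 15 Purkinje cell genes it was 8.69, 11.53, 10.55 and 12.15, and 10.50 to 12.10 in CSB SD. DKO SD 1 was below every CSB SD library for granule and Purkinje cell genes, while DKO SD 34 and 35 lay inside the CSB SD range for both lists. For DKO SD 35 this rested on CSB SD 16 alone, the lowest of its group at 10.27 and 10.50. The next lowest CSB SD library, CSB SD 26, stood at 11.10 and 11.50, above DKO SD 35 in both lists. Pcp2, a Purkinje cell gene, stood at 11.5 in DKO SD 1 and 631 or more in each of the other 9 libraries. Over 18 brainstem and midbrain genes the mean was 3.43 in DKO SD 1 and 5.93 to 7.01 in the other DKO SD libraries, against 5.51 to 7.2 in CSB SD. Hoxb3, a hindbrain positional gene, stood at 1.34 in DKO SD 1, 102, 104 and 38 in DKO SD 34, 35 and 36, and 43.8 to 343 in CSB SD. The counts and medians of gene lists below are therefore also given without DKO SD 1 and DKO SD 35. In bulk tissue, fewer cells of a type and less RNA per cell cannot be told apart.

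**Figure D1:**
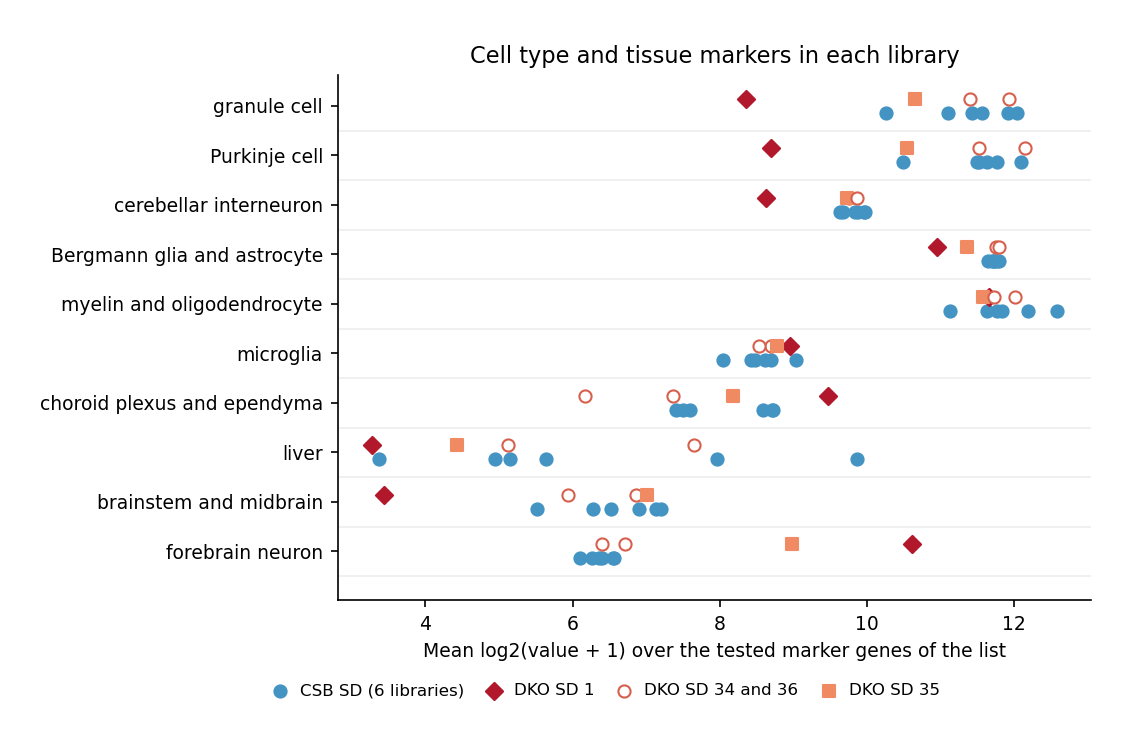
Mean log2(value + 1) of 10 marker lists (vertical axis: list; horizontal axis: mean level) in each of the 4 DKO SD and 6 CSB SD libraries, 1 symbol per library. DKO SD 1 (diamond) has the highest forebrain level, 10.62, and the lowest granule cell level, 8.36, and DKO SD 35 (square) has the next highest forebrain level, 8.99.

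Slc13a5 was the gene lost by design, and it was the only gene that passed. Its value was 0 in DKO SD 1, 34, 35 and 36, whereas CSB SD libraries had a lowest value of 95.3, a median of 113 and a highest value of 128, with a mean of 113 ± 12.3 (SD, n = 6). The 2 groups did not overlap, and the 4 DKO libraries were alike. On the log2(value + 1) scale it fell by 6.83 (SE 0.223, limma with Benjamini-Hochberg adjustment, adjusted p = 4.43e-23); against a group listed at 0 the size of this difference is set by the pseudocount, and no fold is given. The gene (ENSMUSG00000020805.14) lies on chromosome 11 from 72241989 to 72267222 in GRCm38. Its fall was of like size in the separate KD libraries, at -6.87 for DKO against CSB, and in the WT background, at -7.02 for INDY against WT on SD.

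Ercc6 did not separate the groups, both of which carry the CSB genotype. It stood at 634 in DKO SD 1, 654 in DKO SD 34, 546 in DKO SD 35 and 540.1 in DKO SD 36, and in CSB SD it ran from 489.5 through a median of 590.0 to 663. The log2 difference was 0.00 with a 95% interval from -0.28 to 0.29 (limma, adjusted p = 0.994).

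Across the transcriptome, in DKO against CSB on SD, 1 of 21367 genes passed, which is 0.00468% of them. At an unadjusted p under 0.05 stood 2908 genes (13.6%), 1596 with a higher mean in DKO (7.47%) and 1312 with a lower mean (6.14%). In 424 genes (1.98%) all 4 DKO values lay above all 6 CSB values, and in 191 (0.894%) all lay below. The median log2 difference over all genes was -0.02, and 46.3% of differences were above 0. Precision was moderate: the median standard error was 0.203, the 95% interval lay within a 2-fold difference either way for 15419 genes, and within a 1.5-fold difference for 9947. With DKO SD 1 and 35 left out, Slc13a5 was again the only gene to pass, and 861 genes with a higher and 1440 with a lower mean had an unadjusted p under 0.05. These counts were 809 and 948 without DKO SD 1 alone. With 1 surrogate variable in the fit, which takes out spread shared by libraries within groups, 1288 of 21367 genes passed, 834 higher and 454 lower. The variable was drawn from the residuals of these same libraries, so it lowers the spread and leaves each difference as it was. Its Pearson r with the forebrain level was -0.75 over the 40 libraries. The genes that passed held 11 of the 20 forebrain neuron genes and 8 of 20 immediate early genes, all higher. They also held 5 of 16 granule cell genes, all lower. The levels of the forebrain and immediate early lists were highest in DKO SD 1 and 35, and that of the granule cell list was lowest in DKO SD 1. The part of these markers in the count was not tested.

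**Figure D2:**
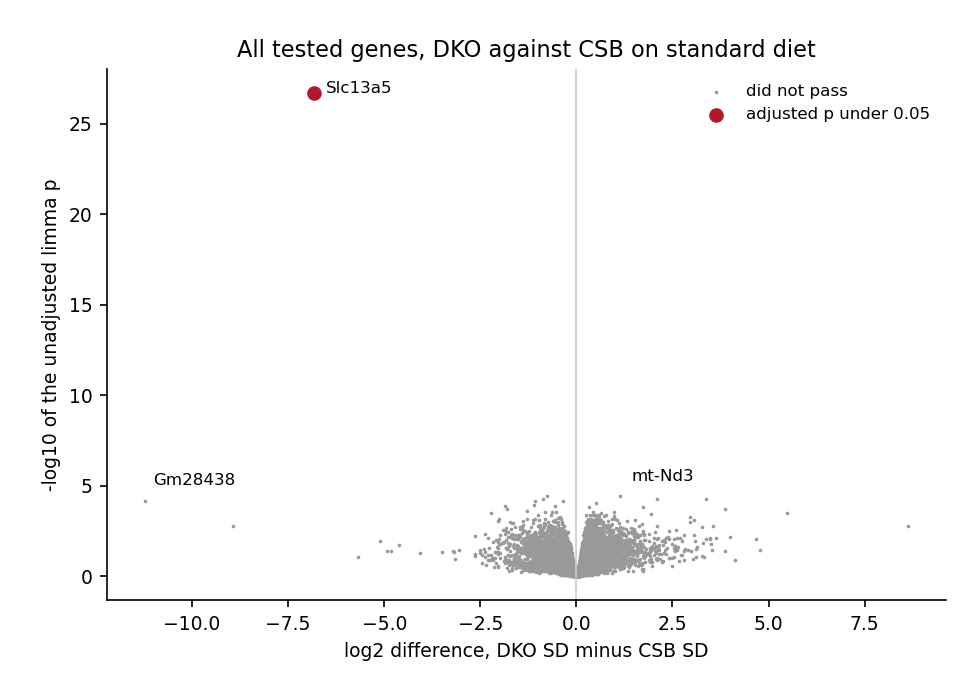
Log2 difference of DKO SD minus CSB SD (horizontal axis) against minus log10 of the unadjusted p (vertical axis) for the 21367 genes tested, 1 point per gene. Slc13a5 (red) stands alone with an adjusted p of 4.43e-23, and the next genes, among them mt-Nd3 and Gm28438, have an adjusted p of 0.177.

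After Slc13a5, 19 genes had the smallest p-values among genes with a mean of at least 20 and an ordinary symbol, 10 higher and 9 lower in DKO. None passed: their adjusted p in limma, with Benjamini-Hochberg adjustment, ran from 0.177 to 0.248. The values that follow describe them and are not calls.

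The smallest p of the higher genes belonged to mt-Nd3, a subunit of respiratory complex I encoded in the mitochondrial genome. It stood at 35263 in DKO SD 1, 30137 in DKO SD 34, 23567 in DKO SD 35 and 44079.6 in DKO SD 36, against 12577, a median of 14485 and 18556 in CSB SD. Every DKO library lay above every CSB library, and the log2 difference was 1.12 (SE 0.237, limma, adjusted p = 0.177). A near-identical copy in the nuclear genome, Gm28438, shares this RNA in the annotation. The first 40 bases of both are printed because they hold the 1 base by which they differ, in capitals: T3C, mt-Nd3 base first, counted from 1 at its 5′ end.

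mt-Nd3 (GRCm38, mitochondrial genome, 9459 to 9806, plus strand): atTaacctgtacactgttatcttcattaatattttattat
Gm28438 (GRCm38, chromosome 1, 24612775 to 24613119, minus strand, unprocessed pseudogene): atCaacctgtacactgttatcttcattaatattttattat

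The other 344 of 345 aligned bases are identical, and mt-Nd3 is 348 bases long where the copy has 345, so few positions tell the 2 genes apart. Gm28438 stood at 0, 0, 179 and 0 in DKO SD 1, 34, 35 and 36, and between 7321 and 9383 in CSB SD. It held at most 0.754% of the pair's sum in DKO SD and 33.0% to 42.4% in CSB SD. Over the whole series this share was under 2% in 9 of 9 DKO libraries, 0 of 11 CSB libraries, 5 of 12 INDY libraries and 1 of 8 WT libraries. The sum of the pair was 33306 ± 8590 (SD, n = 4) in DKO SD and 23790 ± 2743 (SD, n = 6) in CSB SD, a log2 difference of 0.46 (two-sided exact permutation test, p = 0.0381). The sums overlapped, from 23746 to 44079.6 and from 21569 to 27715, whereas mt-Nd3 alone did not. This sum and those of the other copies below were formed after the values were seen, and what sets the share of the copy was not tested.

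Among the other higher genes, Bdnf, a neurotrophin, stood at 402, 465, 533 and 529 in DKO SD 1, 34, 35 and 36, and at 218 to 339.7 with a median of 277 in CSB SD, without overlap (log2 difference 0.76, SE 0.196). Socs5, a suppressor of cytokine signalling, stood at 2183, 2148, 2299 and 2062 against 1578 to 1893 with a median of 1772 (0.33, SE 0.0772). DKO SD 1, the library with the highest forebrain level, had the lowest Bdnf value of the 4 DKO libraries, and Socs5 was lowest in DKO SD 36. Kif5a, a kinesin motor of axonal transport, stood at 49397, 34822, 36648 and 27606 against 18765 to 31270.2. Grm3, a metabotropic glutamate receptor, stood at 3071, 1889, 2040.2 and 1470.1 against 1217 to 1541. Both of these had their highest value in DKO SD 1, and both overlapped CSB SD through DKO SD 36. With DKO SD 1 and 35 left out, the differences were 0.40 for Kif5a, from 0.63, and 0.28 for Grm3, from 0.58.

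Lrp8os2, an antisense RNA of the Lrp8 gene, had the largest difference of the 10 higher genes at 3.38 (SE 0.742). It stood at 105, 35.1, 19.9 and 35.5 in DKO SD 1, 34, 35 and 36, and at 0.662 to 7.14 in CSB SD with a median of 3.70. The groups did not overlap, but the values are low, and the strand of the libraries is not stated, so reads of a sense partner cannot be told apart. Rpe65, the retinoid isomerohydrolase of the visual cycle, stood at 86.9, 22.0, 23.3 and 16.2 against 3.12 to 12.1 (1.73, SE 0.41), with DKO SD 1 far above the others; without DKO SD 1 and 35 the difference was 1.12. The remaining higher genes had smaller differences. Lyrm4, which assists iron-sulphur cluster assembly, stood at 667, 507, 493 and 538 against 332 to 417 (0.51, SE 0.13). Tbrg1 stood at 862, 688, 740.1 and 741 against 496 to 629.8 (0.44, SE 0.111). Acp2, a lysosomal acid phosphatase, stood at 2026, 2162, 1967 and 1888 against 1659 to 1798 (0.24, SE 0.0619). Each of these had all 4 DKO values above CSB SD. Acp2 shares transcript sequence with the overlapping gene Ddb2, Tbrg1 with Siae and Bdnf with Gm45346, so reads could be split between them.

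Among the 9 lower genes, Plod2, which hydroxylates lysines of collagen, stood at 163, 220.3, 220.0 and 183 in DKO SD 1, 34, 35 and 36, and at 239 to 481 with a median of 334 in CSB SD (log2 difference -0.76, SE 0.162, limma, adjusted p = 0.177). Col5a3, a fibrillar collagen chain, stood at 74.7, 42.7, 56.1 and 62.0 against 90.1 to 144 (-0.83, SE 0.205). Loxl2, a lysyl oxidase that cross-links collagen, stood at 86.3, 104, 100.4 and 91.8 against 109 to 189 (-0.64, SE 0.158). Ltbp3, which binds latent TGF-beta in the matrix, stood at 486, 498, 401 and 461 against 583 to 922 (-0.67, SE 0.173). In all 4 genes every DKO value was below every CSB value. Col1a2, a chain of type I collagen in the list of pericyte, smooth muscle and fibroblast markers, stood at 244, 521, 383 and 245 against 563 to 1551 (-1.22, limma, adjusted p = 0.276). Of the 16 genes of that marker list, 5 had a difference above 0, and the median was -0.08 (5 and -0.17 without DKO SD 1 and 35).

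The other lower genes had varied roles. Cad, the multienzyme that starts pyrimidine synthesis, stood at 260.2, 290.2, 352 and 325 against 367 to 521 (-0.53, SE 0.131). Mief1, which recruits the mitochondrial fission machinery, had the narrowest groups, at 709, 739.8, 702 and 732 against 862 to 981 (-0.34, SE 0.0771). Acrbp, a protein first known from sperm, stood at 43.1, 41.4, 53.9 and 54.0 against 75.7 to 116 (-0.88, SE 0.192). All 3 had DKO values below CSB values without overlap. Anks1, an adaptor with ankyrin repeats, stood at 536, 679, 663 and 632 against 845 to 1137 (-0.56, SE 0.132). Sema6d, a guidance semaphorin, stood at 2616, 4449, 3536 and 3553 against 4307 to 5093 (-0.42, SE 0.11) and overlapped through DKO SD 34. Acrbp shares sequence with Gm44597, Anks1 with Taf11, Mief1 with AC140267.1 and Loxl2 with Gm21451.

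**Figure D3:**
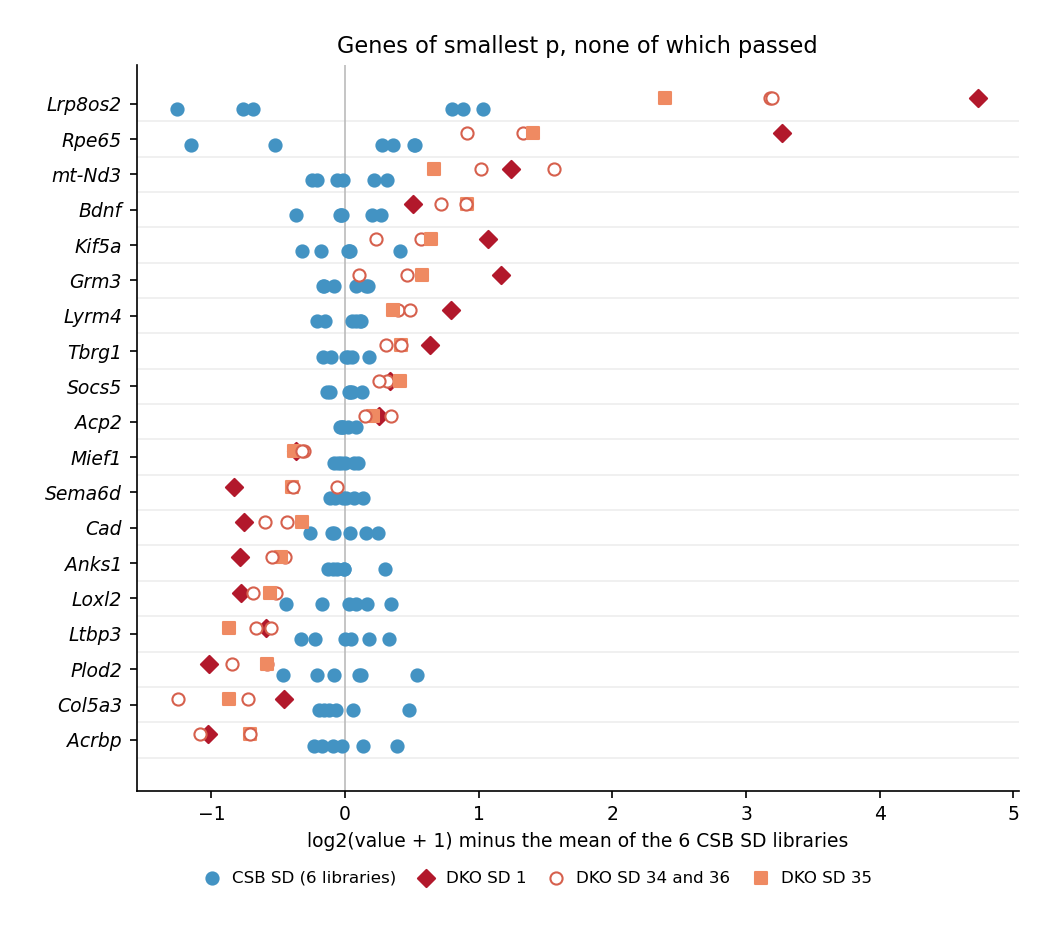
Log2 of (value + 1) relative to the CSB SD mean (horizontal axis) for the 19 genes of smallest p after Slc13a5 (vertical axis), 1 symbol per library, DKO SD and CSB SD. In 16 of the 19 genes the 4 DKO symbols and the 6 CSB symbols do not overlap, and the exceptions are Kif5a, Grm3 and Sema6d.

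The same 19 genes were then read in the other comparisons. The libraries of those comparisons had no part in the SD difference between DKO and CSB. They did share the filter and the estimate of spread behind the p-values that ranked the genes. For DKO against CSB on KD, 5 of the 19 differed in the same direction, where 51.7% of all genes did, and 1 (mt-Nd3, log2 0.83) had an unadjusted p under 0.05. On KD, Plod2 differed by 0.15, Bdnf by -0.07, Socs5 by -0.00 and Lrp8os2 by -0.35. On KD, 6 genes passed (0.0281%), and 369 (1.73%) had an unadjusted p under 0.05. The difference between the diets had an unadjusted p under 0.05 in 18 of the 19 genes, and none passed (limma, smallest adjusted p among them 0.803). Because the genes were chosen for a large SD difference, that count of 18 is in part set by the choice. For INDY against WT on SD, 18 of the 19 had the same direction, where 70.4% of all genes did, and 1 had an unadjusted p under 0.05. That comparison also held libraries with a high forebrain level, up to 8.78 in INDY SD against at most 6.34 in WT SD, and the part of this in the shared direction was not tested. On KD the forebrain level ran from 6.11 to 8.53 in DKO and from 6.06 to 7.95 in CSB. For DKO against CSB, the median difference of the forebrain list was 1.84 on SD and -0.11 on KD. The part of this in the differing directions on KD was not tested either. Of the 40 libraries, 12 had a forebrain level above 7.5.

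Over all genes, 0 passed for the difference between the SD and KD comparisons (limma, 0% of genes, smallest adjusted p 0.579), with 1280 (5.99%) at an unadjusted p under 0.05. The loss of Slc13a5 in the CSB background against its loss in the WT background on SD also gave 0 (0%, smallest adjusted p 0.999), with 701 genes (3.28%) at an unadjusted p under 0.05.

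Gene lists for the pathways around citrate were then read, with 21 lists of pathways and 15 of cell types and 818 distinct genes tested. Of these 818, 1 passed: Slc13a5. The counts and medians below describe lists whose members did not pass, set beside the median of -0.02 and the 46.3% above 0 over all genes. Counts of members at an unadjusted p under 0.05 stand beside 7.47% of all genes for higher and 6.14% for lower means in the fit of all libraries. Without DKO SD 1 and 35 the median over all genes was 0.00, and 50.4% were above 0. In that fit 861 of 21367 genes were higher and 1440 lower at an unadjusted p under 0.05. Without DKO SD 1 alone these counts were 809 and 948.

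In citrate transport and use, 8 of 16 genes were above 0, with a median of -0.04, and 10 of 16 with a median of 0.04 without DKO SD 1 and 35. Slc13a3, the related carrier of dicarboxylates, stood at 252, 470.3, 382 and 289 in DKO SD 1, 34, 35 and 36 and at 349 to 522 in CSB SD (log2 difference -0.29, limma, adjusted p = 0.439). Slc25a1, which exports citrate from mitochondria, stood at 428, 551, 605 and 519 against 407 to 768 (-0.13, 95% interval -0.52 to 0.27). Both overlapped between the groups, and Slc13a5 was the only gene of the list with an unadjusted p under 0.05.

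The fatty acid synthesis and desaturation list had 6 of 20 genes above 0 and a median of -0.05, which became 16 of 20 and 0.06 without DKO SD 1 and 35. Fasn, fatty acid synthase, stood at 5077, 5979.7, 5352 and 5083 against 4643 to 7792, and its 95% interval ran from -0.31 to 0.23. Fads2, a desaturase of polyunsaturated fatty acids, stood at 3211, 3348, 3155 and 2346 against 1973 to 2876 (0.31, adjusted p = 0.312 in limma). Elovl2, an elongase of the same pathway, stood at 238, 489, 289 and 495 against 415 to 542 (-0.35), low in DKO SD 1 and 35 only. In cholesterol synthesis and sterol control, 18 of 29 genes were above 0 with a median of 0.07 (22 and 0.09 without DKO SD 1 and 35). Tm7sf2, a sterol reductase, stood at 553, 408, 228 and 515 against 198 to 263 (0.82, adjusted p = 0.293 in limma), with DKO SD 35 inside the CSB range. Its reads can be shared with Vps51.

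The TCA cycle enzymes had 18 of 28 genes above 0 (median 0.05), fatty acid oxidation and ketone use 10 of 25 (median -0.05), and energy sensing 11 of 29 (median -0.06). In the fit that left out DKO SD 1 and 35, the TCA cycle list had 23 of 28 above 0 (median 0.14), fatty acid oxidation and ketone use 12 of 25 (median -0.02), and energy sensing 15 of 29 (median 0.01). Ucp2, a mitochondrial carrier in the fatty acid oxidation list, stood at 205, 261, 173 and 252 in DKO SD 1, 34, 35 and 36 against 279 to 384 in CSB SD, without overlap (-0.56, adjusted p = 0.300 in limma; -0.34 without DKO SD 1 and 35). In energy sensing 4 genes had an unadjusted p under 0.05 and a lower mean, among them Irs1, an adaptor of insulin signalling, at -0.32. With DKO SD 1 and 35 left out, none of the list was lower at that level and 1 was higher, Irs1 stood at -0.0458, and without DKO SD 1 alone 1 was lower. Histone acetylation and deacetylation, which draws on acetyl-CoA, had 15 of 28 genes above 0 and a median of 0.01 (17 and 0.03 without DKO SD 1 and 35).

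Glycolysis had 15 of 20 genes above 0, a median of 0.12, and 4 higher and 2 lower genes at an unadjusted p under 0.05. Without DKO SD 1 and 35 it had 18 of 20 above 0, a median of 0.14, and 2 higher and 0 lower. Gapdh, the glyceraldehyde-3-phosphate dehydrogenase, stood at 22180.5, 27586, 28486 and 25253 in DKO SD 1, 34, 35 and 36, and at 15166 to 25236 with a median of 17809 in CSB SD (0.45, adjusted p = 0.248 in limma). Hk2, a hexokinase, stood at 136, 277, 141 and 380.5 against 237 to 499 (-0.59), low in DKO SD 1 and 35. Gapdh has many near-identical copies in the genome, and at least a pair of them took reads. Gm12671 (chromosome 4, 91851668 to 91852669, minus strand), identical to Gapdh over 1002 bases, stood at 5725, 7365, 7159 and 6689 in DKO SD 1, 34, 35 and 36. It stood at 0 in CSB SD 6, 8, 16 and 31, and at 5464 and 4506 in CSB SD 26 and 30. Gm7336 (chromosome 7, 51746647 to 51747878, plus strand), which matches Gapdh at 1229 of 1232 bases, did the reverse: 0 to 31.2 in DKO SD, 1518 to 2415 in the 4 CSB SD libraries without Gm12671, and 5.59 and 12.5 in CSB SD 26 and 30. Over all 40 libraries Gm12671 was at 0 in 12, and Gm7336 was at 1000 or more in the same 12. The sum of the 3 genes was 32627 ± 3521 (SD, n = 4) in DKO SD and 21982 ± 5050 (SD, n = 6) in CSB SD, a log2 difference of 0.59 (two-sided exact permutation test, p = 0.019), with overlap. Within CSB SD the sum also differed with the copy: 30706 and 25422 in CSB SD 26 and 30, and 17580 to 19668 in the 4 libraries without Gm12671. The sum therefore does not remove the split between copies. What decides which copy holds the reads, and its part in the difference of the sums, was not tested.

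**Figure D4:**
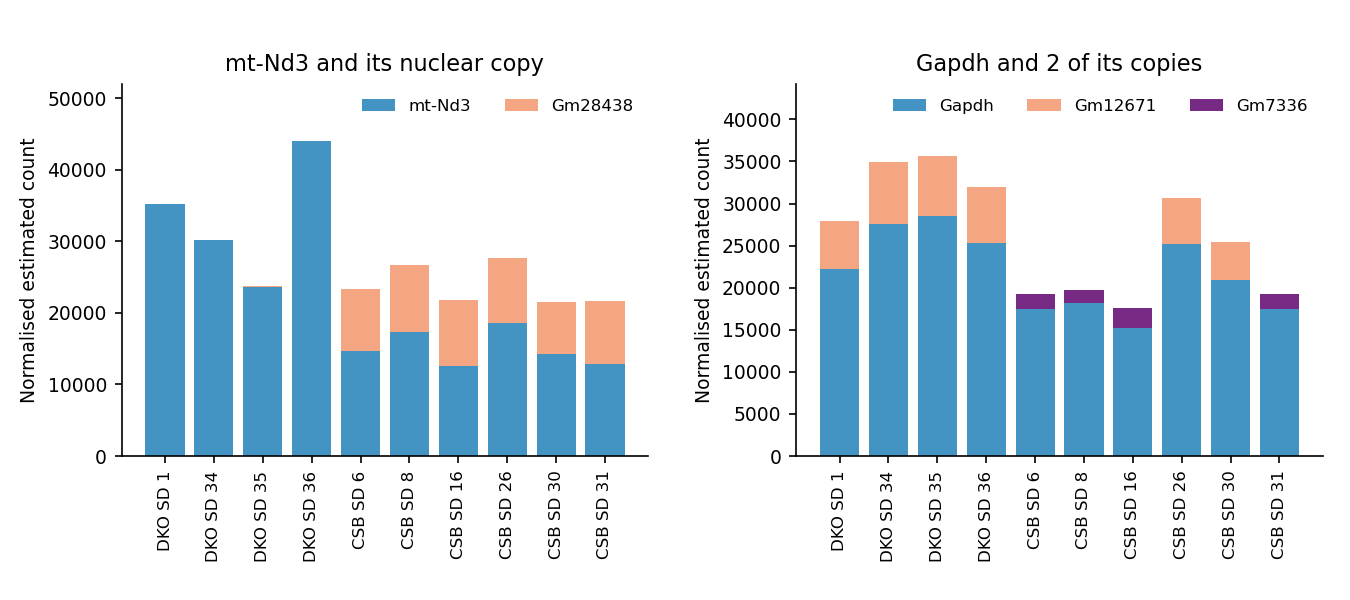
Stacked values (vertical axis: normalised value) by library (horizontal axis, DKO SD then CSB SD) for mt-Nd3 with its nuclear copy Gm28438, and for Gapdh with Gm12671 and Gm7336. Gm28438 is visible only in the 6 CSB SD libraries, and Gm12671 is at 0 in 4 of the 6.

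Ribosomal protein and respiratory chain genes lay above 0 as whole lists. All 79 cytosolic ribosomal protein genes had a difference above 0, with a median of 0.28; 26 had an unadjusted p under 0.05, all higher, where 7.47% of all genes did. In 18 the 4 DKO values lay above the 6 CSB values, where 1.98% of all genes did. No member passed, and the median on KD was 0.02. For INDY against WT on SD the median was 0.24, with 77 of 79 above 0, where the median over all genes was 0.01. Rpl3 stood at 11286, 10854, 10871 and 11172 in DKO SD 1, 34, 35 and 36, and at 7504 to 10258 with a median of 8640.4 in CSB SD (0.35, adjusted p = 0.293 in limma). Rpl29 stood at 2122, 1871, 2020.0 and 1959 against 1394 to 1691 (0.33, adjusted p = 0.273 in limma). The list level was 11.59, 11.47, 11.44 and 11.60 in the 4 DKO libraries and 11.10 to 11.49 in CSB SD, so the groups overlapped by CSB SD 26 alone, the highest of its group. In the fit that left out DKO SD 1 and 35, the count was 78 of 79 with a median of 0.27. Of the 79, 8 then had an unadjusted p under 0.05, all higher, where 861 of 21367 genes were higher. Without DKO SD 1 alone it was 11 of 79, where 809 of 21367 genes were higher. Many ribosomal protein genes have processed copies, and reads may be split among them. The non-coding RNA Rn7s1 held 8.43% to 15.6% of the values in DKO SD and 7.48% to 10.1% in CSB SD.

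Fau, which encodes a ubiquitin-like protein fused to a ribosomal protein, had the largest difference of the ribosomal genes printed here, at 1.10 (SE 0.312, limma, adjusted p = 0.248). It stood at 984, 982, 557 and 928 against 317 to 434 with a median of 394, without overlap, and its difference on KD was 0.81. Gm9843 on chromosome 16 (76403251 to 76403652) is identical to it over 402 bases. Summed with that copy, Fau stood at 2613 ± 712 (SD, n = 4) in DKO SD and 1277 ± 95.7 (SD, n = 6) in CSB SD, a log2 difference of 0.98 (two-sided exact permutation test, p = 0.00952, the smallest that 4 against 6 libraries can give).

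All 70 nuclear-encoded genes of oxidative phosphorylation were above 0 with a median of 0.14. Of them 3 had an unadjusted p under 0.05, a smaller share than the 7.47% of all genes that were higher. Without DKO SD 1 and 35 it was 7 of 70, a larger share than the 861 of 21367 genes that were then higher. Cox8a, a subunit of cytochrome c oxidase, stood at 4780.2, 4144, 4068 and 4666 against 3249 to 4050.4 (0.25). Uqcrb, a subunit of complex III, stood at 2124, 2249, 2407 and 2864 against 1853 to 2209.5 (0.28). Cox8a did not overlap between the groups and Uqcrb did, through DKO SD 1. The 13 mRNAs encoded in mitochondria were also all above 0, with a median of 0.15, and without DKO SD 1 and 35 the medians of the 2 lists were 0.22 and 0.27. On KD these medians were 0.08 and 0.01. For INDY against WT on SD they were 0.23 and 0.34, with 68 of 70 and 13 of 13 genes above 0. Mitochondrial genes held 8.12% to 11.1% of the values in DKO SD and 7.29% to 9.62% in CSB SD.

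**Figure D5:**
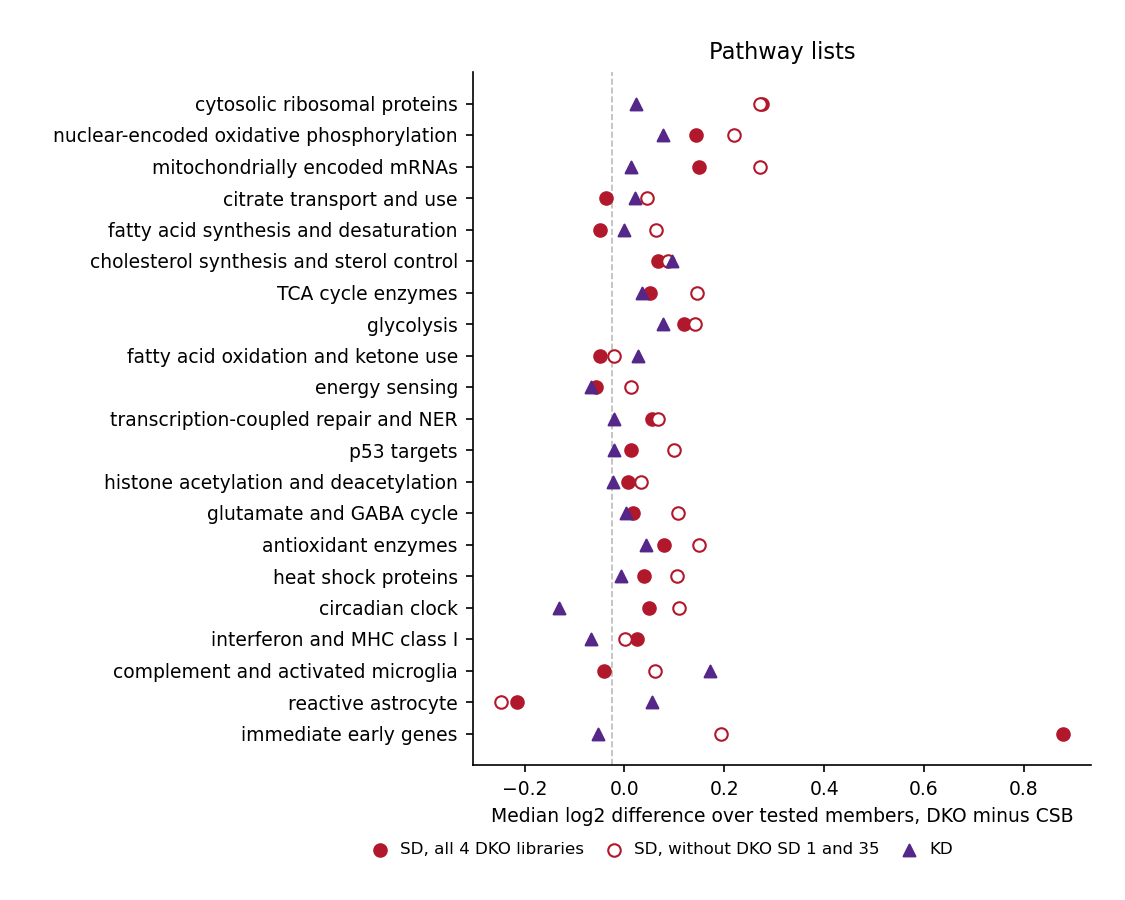
Median log2 difference of DKO minus CSB (horizontal axis) for 21 pathway lists (vertical axis) on SD with all libraries (filled), on SD without DKO SD 1 and 35 (open) and on KD (triangles), with the median over all genes as a dashed line. The ribosomal list stays near 0.28 and 0.27 in both SD versions and lies at 0.02 on KD, and the immediate early genes move from 0.88 to 0.19.

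Immediate early genes, which neurons transcribe within minutes of activity, had 19 of 20 above 0 and a median of 0.88, and 10 had an unadjusted p under 0.05, all higher. The level of the list was 8.25, 6.78, 8.67 and 7.49 in DKO SD 1, 34, 35 and 36 and 6.53 to 7.31 in CSB SD. Homer1, a scaffold of glutamate receptors, stood at 5293, 1356, 2767 and 1551 against 1197 to 1425, and Egr4, a zinc finger factor, stood at 113, 12.8, 80.6 and 24.9 against 4.45 to 18.5. Fosb, an AP-1 subunit, stood at 74.2, 16.8, 83.4 and 28.6 against 10.4 to 26.6. The highest values lay in DKO SD 1 and 35, the same libraries with high forebrain genes. The median was 0.70 without DKO SD 1 alone, and 3 genes had an unadjusted p under 0.05. Without DKO SD 1 and 35 the list had 18 of 20 genes above 0, a median of 0.19 and no gene at an unadjusted p under 0.05; Homer1 then differed by 0.16, from 0.86, Egr4 by 0.57, from 1.74, and Fosb by 0.45, from 1.35.

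Lists of repair and stress responses held no member that passed. In transcription-coupled repair and nucleotide excision repair, 16 of 24 genes were above 0 (median 0.05), and Rad23b, a damage recognition factor, stood at 4339, 4341, 4057 and 4541 against 3644 to 4020.1 without overlap (0.17, adjusted p = 0.292 in limma). Among p53 targets, 12 of 20 were above 0 (median 0.01); Cdkn1a, the cell cycle inhibitor p21, stood at 124, 95, 104 and 102 against 114 to 180.4 (-0.42), and Plk2, a polo-like kinase, at 4587, 946, 2642 and 919 against 731 to 795 (1.23, and 0.28 without DKO SD 1 and 35). In the antioxidant list 19 of 29 were above 0 (median 0.08), and in the heat shock list 14 of 23 (median 0.04). In the fit that left out DKO SD 1 and 35, the counts were 18 of 24 for repair (median 0.07), 14 of 20 for p53 targets (0.10), 21 of 29 for antioxidant enzymes (0.15) and 12 of 23 for heat shock proteins (0.11). Bag3, a co-chaperone of Hsp70, differed by -0.74 (-0.44 without DKO SD 1 and 35), and the small heat shock protein Hspb1 by -0.69, and both overlapped between the groups.

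No gene of the glial activation lists passed. Of 36 genes of complement and activated microglia, 12 were above 0 with a median of -0.04 and none had an unadjusted p under 0.05. With DKO SD 1 and 35 left out, it was 22 of 36 and 0.06. Itgax, a surface integrin of activated microglia, stood at 60.5, 141, 116 and 105 in DKO SD 1, 34, 35 and 36 and at 96.8 to 225 in CSB SD (-0.46, 95% interval -1.26 to 0.35). C3, the central complement component, stood at 168, 569, 274 and 250.0 against 308 to 1553 (-1.27, 95% interval -2.57 to 0.03). Both intervals are wide, so a difference of 2-fold is not excluded for either. The reactive astrocyte list had 4 of 21 genes above 0 and a median of -0.21, and 4 of 21 had an unadjusted p under 0.05, all lower, where 6.14% of all genes did. Without DKO SD 1 and 35 the list had 5 of 21 above 0, a median of -0.25 and 0 at that level, and with the forebrain level as a covariate 1 of 21, -0.24 and 0. Vim, an intermediate filament, differed by -0.52 (-0.0927 without DKO SD 1 and 35) and Gfap by -0.41 (-0.24), both with overlap. The interferon and MHC class I list had 20 of 36 above 0 and a median of 0.03 (18 and 0.00 without DKO SD 1 and 35).

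Clock genes had 13 of 20 above 0 with a median of 0.05 (15 and 0.11 without DKO SD 1 and 35). Dbp, an output gene of the clock, stood at 871, 860.3, 839 and 1038 against 621 to 879.9 (0.34). It shares transcript sequence with Sphk2, so reads could be split between them. In the glutamate and GABA cycle 12 of 21 were above 0 (median 0.02; 17 and 0.11 without DKO SD 1 and 35). The glutamine carriers Slc38a1 and Slc38a2 differed by -0.33 and -0.34, lowest in DKO SD 1 at 4106 and 2571, and by -0.0494 and -0.12 without DKO SD 1 and 35. Liver genes had 0 of 20 above 0 and a median of -1.12, and without DKO SD 1 and 35 the direction turned, with 16 of 20 above 0 and a median of 0.26. The level of the liver list was 3.27, 7.65, 4.42 and 5.13 in DKO SD and 3.37 to 9.87 in CSB SD. This list also holds Ttr, a member of the choroid plexus list, and Trf, a member of the myelin list. Alb, serum albumin and a defining liver gene, stood at 11.8 to 1756 in DKO SD and 12.7 to 6253 in CSB SD. Choroid plexus and ependyma genes had 3 of 16 above 0 and a median of -0.32, and 1 of 16 and -1.37 without DKO SD 1 and 35. Their level stood at 9.48, 7.37, 8.19 and 6.17 against 7.41 to 8.73, and Ttr, their defining gene, at 58009, 6889, 19788 and 1523 against 6221 to 32275. The part of these tissues in the differences above was not tested.

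Genes next to Slc13a5 were read separately because sequence linked to a targeted gene travels with it. Within 15 Mb on chromosome 11, 494 other genes were tested, none passed in limma, and 62 (12.6%) had an unadjusted p under 0.05, against 13.6% elsewhere. In 2.83% of them the groups did not overlap, against 2.87% elsewhere. Of the nearest genes, Txndc17, a thioredoxin-like protein, differed by 0.20, Xaf1, an apoptosis factor, by 0.24, and Med31, a Mediator subunit, by 0.14. Smtnl2 went the other way, with a mean of 58.3 in DKO SD and 67.6 in CSB SD. The means were 64.8 and 61.1 for Tekt1, and 84.5 and 83.3 for 4930563E22Rik. None of these genes passed.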

How the data were processed

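Per the labels, the libraries were DNBseq libraries of trizol-extracted total RNA without rRNA. The deposited table holds 1 signal per gene and library, an estimated read count that the authors normalised; the submitters' processing notes name Bowtie2, Salmon, DESeq2 and the build mm9, with no versions. Values were not whole, so raw counts and depth are unknown and no count model was used.

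Symbols and positions came from GENCODE M21 on GRCm38, matched by gene ID (53444 of 54331 with version, 54097 without); its build differs from mm9. The 21367 genes at 10 or more in 4 libraries or more (16143 protein-coding) were tested as log2(value + 1), pseudocount 1, with limma 3.58.1 in R 4.3.3, with trended and robust variances, all 8 groups in 1 fit and no covariate. Benjamini-Hochberg adjustment ran over all tested genes, two-sided. The fit was tested on simulated data. Sums over copies were compared by exact permutation over libraries in Python 3.11.15 (scipy 1.17.1), and shared sequences were found with minimap2 2.31-r1302.

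Named genes were Slc13a5 and Ercc6, the 10 genes per direction of smallest p (mean at least 20 over the 10 libraries, no clone or model names), and list members chosen for their role or p. The comparison, genes and lists were chosen with earlier results of these data known. Gene copies and the libraries left out together were picked with their values in view. Alternatives were pseudocounts of 0.5 and 5, no filter, a filter at 50, rescaling, fits of only the groups compared, a forebrain covariate, 1 surrogate variable (the first singular vector of the residuals), array weights, plain variances and leaving out libraries.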

Additional observations from a re-analysis of the deposited data

Results flagged for a closer look

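Dixon's ratio was computed for 230 groups of values (genes named above and list levels, in DKO SD and CSB SD), and 13 had 1 library set far from its group, where chance gives about 5% of groups. In DKO SD 1, 3 values stood low: the glycolysis level at 12.06 (others 12.24 to 12.26), the cerebellar interneuron level at 8.63 (9.73 to 9.86), and the glycine transporter gene Slc6a5 at 21.3 (1358 to 3114). Fads2 stood low in DKO SD 36 at 2346 (3155 to 3348), Fau stood low in DKO SD 35 at 557 (928 to 984), and the myelin gene Mbp stood high in DKO SD 34 at 76242 (51549 to 54011).

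In CSB SD 16, the pericyte, smooth muscle and fibroblast level was low at 8.02 (8.77 to 8.97), Pcp2 was low at 631 (1721 to 2951), and Anks1 was high at 1137 (845 to 922). In CSB SD 26, the ribosomal protein level was high at 11.49 (11.10 to 11.24) and mt-Co3, a subunit of cytochrome c oxidase with a nuclear copy, was high at 181666 (127143 to 141597). Fau was low in CSB SD 6 at 317 (387 to 434), and mt-Nd1, a complex I subunit, was low in CSB SD 30 at 50534 (57910 to 58825).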

How the results depend on the processing

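No paired analysis was run because the labels name no pairing. Each library has its own number, so the numbers cannot show whether animals were paired. For DKO against CSB on SD, 1 gene passed under pseudocounts of 0.5 and 5, a filter at 50, rescaling, plain variances, without DKO SD 1 and 35 together, and with each library left out in turn (1 to 1). It was 2 when only the groups compared were fitted (Gm28438 added), 2 with array weights, 3 without a filter, 3 with the forebrain covariate (mt-Nd3 and Gm28438 added) and 5 without libraries of forebrain level above 7.5, a limit chosen after seeing the data. With 1 surrogate variable, which removes residual spread and leaves each difference as it was, 1288 genes passed, 834 higher and 454 lower, and the difference between diets gave 72. The latter gave 2 with array weights and 0 to 2 with 1 library left out (2 without DKO KD 3), and 0 otherwise. The difference between the CSB and WT backgrounds gave 0 under every alternative run.

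Directions turned for genes that had not passed. Without DKO SD 1 and 35, and without all libraries of high forebrain level, log2 differences became Alb 0.81, Clec7a 0.0873, Cst7 0.33, Elovl2 0.10, Fasn 0.00274, Fat2 0.21, Gabra6 0.62, Gpnmb 0.34, H2-D1 0.0294, Hk2 0.0174 and Pcp2 0.61. With the forebrain covariate they were Clec7a 0.13, Cst7 0.35 and Mbp 0.0326, and with array weights Cst7 0.10, Ercc6 -0.0428 and Fasn 0.0547. With 1 library left out in turn, the range was -0.19 to 0.0508 for Clec7a, -0.32 to 0.16 for Cst7, -0.55 to 0.19 for Gpnmb, -0.0902 to 0.0627 for Fasn, -0.54 to 0.14 for Tekt1, -1.16 to 0.59 for Ttr, -0.0508 to 0.0465 for Ercc6 and -0.0560 to 0.11 for 4930563E22Rik. Where no cause is stated, the cause was not tested.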

Other observations

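Tuba1c, an alpha-tubulin gene (chromosome 15, 99029891 to 99038110), was picked out after its values were seen. It stood at 153 in DKO SD 1, 794 in DKO SD 34, 825 in DKO SD 35 and 707 in DKO SD 36, and at 38.8 to 99.2 in CSB SD. The groups did not overlap (log2 difference 2.96, SE 0.779, limma, adjusted p = 0.248), and DKO SD 1 was the lowest DKO library. On KD the difference was 1.82, and for INDY against WT on SD it was -0.86.

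T cell, B cell and neutrophil markers had 0 of 9 genes above 0 and a median of -0.67, and -0.64 without DKO SD 1 and 35. The other genes of this list of 15 were not tested. Its level was low and overlapped between the groups, at 3.36 to 5.02 in DKO SD and 4.15 to 5.37 in CSB SD, and no member passed. Microglial identity genes had 18 of 20 above 0 and a median of 0.21 (15 and 0.10 without DKO SD 1 and 35). This list shares Trem2, Tyrobp and C1qa with the activated set. P2ry12, a purinergic receptor of resting microglia, stood at 833, 429, 528 and 402 in DKO SD 1, 34, 35 and 36 and at 305 to 519.7 in CSB SD (0.44, adjusted p = 0.343 in limma), highest in DKO SD 1, and differed by 0.0995 without DKO SD 1 and 35. Endothelial genes had 7 of 14 above 0 and a median of 0.00 (9 and 0.02 without DKO SD 1 and 35), and oligodendrocyte precursor genes 8 of 12 and 0.01 (5 and -0.03). Myelin genes had 4 of 16 above 0 and a median of -0.19, which became 8 of 16 and 0.01 without DKO SD 1 and 35, and 12 of 16 and 0.08 with the forebrain level as a covariate.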
